A study of Mus musculus with 11 samples.

Results

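The Polycomb complex subunits described here are 31 genes that encode the repressive complexes PRC2 and PRC1, out of 22369 genes in the table. They were chosen by name from a list of known subunits, and Ensembl IDs were matched to symbols. All 31 were found, 1 row each, and all 31 passed the filter of a mean of at least 1 CPM, the library-size-scaled read count. The libraries are messenger RNA profiles of 11 clonal lines of mouse embryonic stem cells, named here clones 16 to 26, with 1 library per clone. All clones derive from EBRTcH3 cells, a line that makes the tetracycline-controlled transactivator from its endogenous ROSA26 promoter. Every clone carries several integrated reporters driven by the mouse PGK promoter and delivered as a barcoded piggyBac library, was picked as a single colony after sorting for high eGFP, and grew with leukemia inhibitory factor, the MEK inhibitor PD0325901 and the GSK-3 inhibitor CHIR99021. There is no treated or control group, so clones were compared with each other, and where the reporters sit in each clone was not used here.

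PRC2 is the enzyme that methylates histone H3 at lysine 27. Its core joins a catalytic subunit, EZH1 or EZH2, to SUZ12, EED and a histone-binding protein, RBBP4 or RBBP7. Accessory subunits divide it into a form with a Polycomb-like protein (MTF2, PHF1 or PHF19) and a form with JARID2 and AEBP2. PRC1 ubiquitinates histone H2A through RING1 or RNF2 paired with a PCGF protein. Canonical PRC1 holds a CBX protein, which reads the PRC2 mark, and a PHC protein, while variant PRC1 holds RYBP or YAF2 instead. In embryonic stem cells both complexes sit at CpG-rich promoters of developmental genes that are kept silent, and CBX7 is known as the main canonical CBX protein of these cells.

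Total counts ranged from 10846005 in clone 16 to 16868500 in clone 23, so 3 counts, taken as the floor of detection, corresponded to 0.178 to 0.277 CPM. Library factors by the trimmed mean of M values (TMM) lay between 0.971 and 1.04. The labelled cell type was checked against 9 stem cell markers, whose summed level was 6902 CPM in clone 17, the lowest, to 8614 in clone 16. Tfcp2l1 (1971 ± 423 CPM, SD, as below) and Esrrb (1388 ± 176) were the highest, and Utf1 was the variable one, lowest in clone 19 at 76.6 CPM (edgeR goodness-of-fit test, adjusted p = 0.00811). The summed levels of 7 primitive endoderm markers (4.21 to 10.3 CPM), 5 mesoderm markers (1.91 to 5.14) and 7 fibroblast markers (2.07 to 6.52) were low, led by Gata4, Pdgfra, Kdr, Mesp2, Thy1 and Col1a1. These 3 sums were also lowest in clone 17, and the mesoderm and fibroblast sums were highest in clone 19, where Col1a1, variable by edgeR (adjusted p = 0.00477), had 4.50 CPM. The 4 neural markers in the table summed to 48.6 to 121 CPM, mostly Tubb3 and Nes. All 3 neural markers tested, Tubb3, Nes and Pax6, were variable by edgeR, with Nes highest in clone 19 (75.9 CPM) and Pax6 in clone 17 (10.2 CPM). In these bulk libraries fewer cells of a type and less RNA per cell cannot be told apart. Clones 20 and 23 were the most alike of the 55 pairs of libraries, with a Pearson r of 0.46 across genes of their deviations from the median clone, followed by clones 17 and 19 with 0.42. These are descriptions across genes, which are not independent replicates. The labels do not say whether the clones came from separate transfections, so p-values measure only the spread between these libraries.

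Most Polycomb subunits were abundantly transcribed in all 11 clones. The 31 genes together held 5750 ± 364 CPM (mean ± SD over the 11 clones, as everywhere below unless stated), of which the 11 PRC2 genes held 3257 ± 158 and the 20 PRC1 genes 2493 ± 271. The median member stood at 134 CPM, against 31.1 CPM for all 12479 tested genes, and 24 of the 31 lay above the median tested gene. The highest were Jarid2 (708 ± 126 CPM), Phc1 (559 ± 118), Mtf2 (516 ± 72.1), Suz12 (495 ± 50.9) and Rbbp4 (481 ± 39.7). The lowest were Cbx8 at 3.44 ± 1.41 CPM, Pcgf1 at 6.03 ± 0.493, Yaf2 at 6.44 ± 1.99 and Pcgf5 at 7.74 ± 1.90.

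To compare genes with each other, CPM was divided by the length of each gene's exons in kilobases (the union over protein-coding transcripts), and all levels in the next paragraphs on subunit balance are on this scale, written as CPM per kb.

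**Figure D1:**
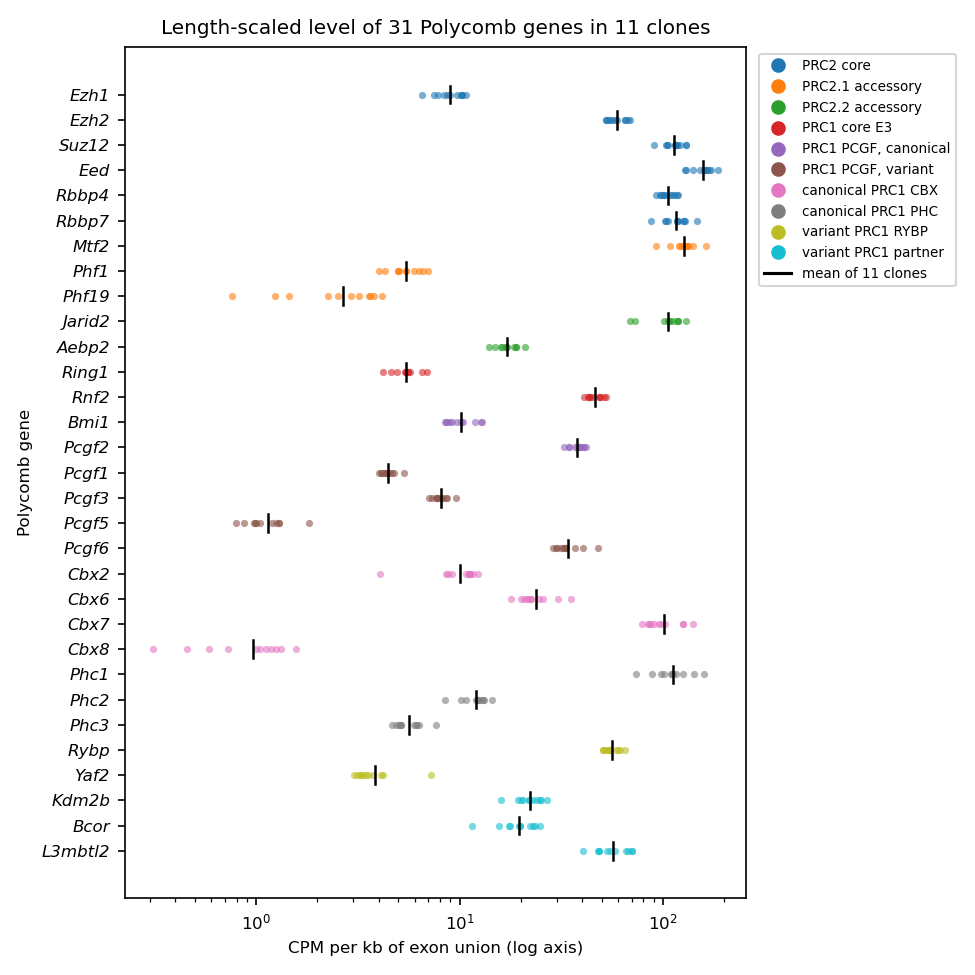
Length-scaled level of the 31 Polycomb genes (x axis, CPM per kb of exon union, logarithmic) with 1 point per clone and a black bar at the mean of 11 clones; colours mark the role of the subunit. In most families a single gene stands far to the right of its paralogues: Ezh2 over Ezh1, Mtf2 over Phf1 and Phf19, Rnf2 over Ring1, Cbx7 over Cbx2, Cbx6 and Cbx8, Phc1 over Phc2 and Phc3, Rybp over Yaf2.

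In the PRC2 core, Eed, the subunit that binds the trimethylated histone tail, stood highest at 157 ± 17.7 CPM per kb. The histone binders Rbbp7 (116 ± 16.1) and Rbbp4 (105 ± 8.69) and the scaffold subunit Suz12 (113 ± 11.6) lay close together, with ranges over clones that overlapped. That Eed stood highest depends on the length used: on unscaled CPM Suz12 (495), Rbbp4 (481) and Rbbp7 (338) were above Eed (324). The catalytic subunits were lower on both scales. Ezh2 had 59.3 ± 6.05 CPM per kb and Ezh1, the catalytic subunit more typical of non-dividing cells, 8.99 ± 1.34. Ezh2 thus made up 86.8% ± 1.73 of the EZH transcripts, from 83.4% in clone 26 to 88.9% in clone 16. Ezh2 over Suz12 came to a ratio of 0.531 ± 0.0939, from 0.414 in clone 26 to 0.719 in clone 22, below 1 in all 11 clones and under every length definition tried. Eed over Suz12 was 1.396 ± 0.218, with 1.07 in clone 19 at the low end and 1.76 in clone 22 at the high end. This ratio depends on the length used: it was 1.11 with coding length and was 0.660 on unscaled CPM. Rbbp7 held 52.3% ± 2.31 of the RBBP pair, but 41.1% with coding length, so the order of this pair was not fixed by these data. Both RBBP proteins also belong to histone deacetylase and chromatin assembly complexes, so their transcripts are not particular to PRC2.

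Among the accessory subunits of PRC2, one gene led on each side. Mtf2, whose protein binds unmethylated CpG DNA, had 127 ± 17.7 CPM per kb and 93.8% ± 1.48 of the Polycomb-like transcripts. Its paralogues Phf1 (5.47 ± 0.938 CPM per kb) and Phf19 (2.68 ± 1.13) shared the rest. Phf1 exons overlap those of Cuta on the opposite strand over 30.7% of their length. No source used here states whether counting used strand, so part of the Phf1 level may be reads of Cuta. The same holds for L3mbtl2 (14.4% shared with Chadl), Rbbp4 (17.4% with Gm26722), Eed (12.6% with E230029C05Rik), Kdm2b (10.4% with Rnf34), Cbx6 (9.70% with Npcd on the same strand) and Mtf2 (9.69% with Tmed5), and smaller overlaps exist for other members. Jarid2, which is a DNA-binding subunit without demethylase activity despite its name, had 105 ± 18.7 CPM per kb, and its partner Aebp2, a zinc finger protein, 17.2 ± 2.01. The sum of Mtf2, Phf1 and Phf19 over the sum of Jarid2 and Aebp2 was 1.14 ± 0.290. It was lowest in clone 24 (0.740) and highest in clones 19 (1.61) and 26 (1.63). In clone 24 Mtf2 was at its lowest level of all clones (375 CPM) and Jarid2 at 793 CPM, above its median of 731 CPM, while Jarid2 was lowest in clones 26 and 19. On unscaled CPM the mean ratio was 0.657, so which form had more transcript depends on the scaling.

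The E3 ligases of PRC1 were uneven. Rnf2 (also called RING1B) had 46.2 ± 3.93 CPM per kb and 89.4% ± 1.52 of the pair, and Ring1 5.48 ± 0.771 CPM per kb. Of the 6 PCGF genes, which give each PRC1 its identity, Pcgf2 (37.8 ± 2.92 CPM per kb) and Pcgf6 (34.2 ± 5.60) led. Pcgf2 (MEL18) belongs to canonical PRC1 and held 39.5% ± 1.93 of PCGF transcripts. Pcgf6, the PCGF protein of the variant complex that holds L3MBTL2 and MGA, held 35.6% ± 3.04. Their ranges of share overlapped, and in clone 17 Pcgf6 (42.4%) was above Pcgf2 (37.2%). With coding length Pcgf6 held 20.8% and Pcgf3 30.1%, close to the share of Pcgf2, so the order of the PCGF genes depends on the length. Bmi1, the other canonical PCGF gene, followed with 10.1 ± 1.67 CPM per kb, then Pcgf3 (8.05 ± 0.699), Pcgf1 (4.44 ± 0.363) and Pcgf5 (1.14 ± 0.279). Canonical over variant PCGF sums gave a ratio of 1.012 ± 0.110, from 0.806 in clone 17 to 1.15 in clone 21, and 0.778 with coding length. Bmi1 and Pcgf1 each have a copy elsewhere that is at least 95% identical over 200 or more bases (Gm5946 and Gm8930). No source used here states how reads with several matches were treated, so the levels of these 2 genes, and likewise of Rbbp7, Rybp and Kdm2b, are uncertain.

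Canonical PRC1 was led by Cbx7 and Phc1. Cbx7, the chromodomain protein that binds trimethylated lysine 27, had 101 ± 20.2 CPM per kb and 74.1% ± 2.83 of the transcripts of the 4 listed CBX genes. Cbx6 followed with 23.8 ± 5.03 CPM per kb (17.5% ± 1.21), and Cbx2, whose protein compacts chromatin, with 9.99 ± 2.31 (7.64% ± 2.32). Cbx8 had 0.961 ± 0.393 CPM per kb (0.721% ± 0.301). Phc1 held 86.1% ± 2.34 of the transcripts of the PHC genes, whose SAM domains polymerise and join PRC1 particles. Its level was 112 ± 23.6 CPM per kb, against 11.98 ± 1.63 for Phc2 and 5.65 ± 0.887 for Phc3. In variant PRC1, Rybp (55.8 ± 4.81 CPM per kb) held 93.6% ± 1.402 of the pair it forms with Yaf2 (3.85 ± 1.19). The summed CBX genes stood over Rybp and Yaf2 by a ratio of 2.29 ± 0.424. It was 2.84 to 2.995 in clones 16, 17 and 18 and 1.89 to 2.39 in the other 8. L3mbtl2, the malignant brain tumour domain protein of the PCGF6 complex, had 56.7 ± 10.3 CPM per kb. Kdm2b, whose CXXC domain brings the PCGF1 complex to CpG islands, had 22.1 ± 3.08, and Bcor, the corepressor of that complex, 19.5 ± 3.86. All 3 stood above Pcgf1 in length-scaled level.

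The promoters of 4 members that recur in the results below are shown. They include Phf19, which had the lowest p-value for spread between clones, and Cbx8, which was low together with Cbx2 in clone 17. The others are Cbx6 and Cbx7, which lie close together on chromosome 15 and were high together in clones 16 to 19. Cbx2 has no listed promoter, and no level or test below uses the sequences. The sequences are from RefSeq on build GRCm38.p6, 5′ to 3′ on the strand of the gene, from 250 bases before to 50 bases after the start. All 4 genes lie on the minus strand. Capitals mark CG dinucleotides, the sites that MTF2 and KDM2B read.
Phf19, chr2:34913927-34914226: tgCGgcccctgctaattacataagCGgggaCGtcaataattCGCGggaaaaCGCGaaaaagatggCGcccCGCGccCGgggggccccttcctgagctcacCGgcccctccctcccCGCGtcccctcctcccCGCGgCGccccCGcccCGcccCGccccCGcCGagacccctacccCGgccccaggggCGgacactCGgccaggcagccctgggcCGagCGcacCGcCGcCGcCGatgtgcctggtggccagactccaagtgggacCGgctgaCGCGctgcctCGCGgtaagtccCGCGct
Cbx8, chr11:119040864-119041163: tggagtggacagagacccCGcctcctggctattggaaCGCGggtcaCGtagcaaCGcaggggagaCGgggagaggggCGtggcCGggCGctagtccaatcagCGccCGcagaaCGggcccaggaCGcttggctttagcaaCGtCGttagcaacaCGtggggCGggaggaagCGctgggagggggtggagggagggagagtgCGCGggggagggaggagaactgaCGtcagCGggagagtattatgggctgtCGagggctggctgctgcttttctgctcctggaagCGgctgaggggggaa
Cbx6, chr15:79834284-79834583: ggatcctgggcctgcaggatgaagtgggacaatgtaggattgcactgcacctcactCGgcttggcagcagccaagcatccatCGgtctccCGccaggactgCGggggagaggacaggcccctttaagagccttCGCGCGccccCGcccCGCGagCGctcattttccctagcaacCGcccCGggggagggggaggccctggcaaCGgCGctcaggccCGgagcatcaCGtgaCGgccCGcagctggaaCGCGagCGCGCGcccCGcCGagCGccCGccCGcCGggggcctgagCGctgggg
Cbx7, chr15:79932597-79932896: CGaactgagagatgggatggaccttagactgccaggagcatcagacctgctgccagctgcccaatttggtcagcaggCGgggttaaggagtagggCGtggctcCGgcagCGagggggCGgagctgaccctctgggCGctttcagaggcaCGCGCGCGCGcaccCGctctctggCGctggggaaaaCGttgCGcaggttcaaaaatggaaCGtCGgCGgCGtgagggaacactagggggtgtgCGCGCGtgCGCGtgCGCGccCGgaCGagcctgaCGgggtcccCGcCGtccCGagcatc
These windows hold 38 CG in Phf19, 24 in Cbx8, 31 in Cbx6 and 33 in Cbx7. Over the 27 members with a listed promoter the median was 24 CG per 300 bases, against 21 for 9756 tested genes and 7 for all 27025 genes with a listed promoter. Motifs for NRF1, YY1, E2F, CRE and ETS were searched on both strands in the first listed promoter, and no share was tested. The YY1 motif GCCATNTT is in 5 of the 27 (18.5%), Phf19, Bmi1, Phc3, Pcgf2 and Jarid2, against 9.02% of tested genes. The CRE motif TGACGTCA is in Cbx8 alone of the 27, against 3.33% of tested genes. A match is a string of letters and not a measured binding site, and the libraries hold no measurement of binding.

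The question asked across clones was which subunits spread more than the dispersion trend gives for genes of their level. Of 31 members 0 were variable when edgeR compared each gene's deviance with the spread typical of its level (adjusted p under 0.05, Benjamini-Hochberg), where 7.68% of all 12479 tested genes were. At an unadjusted p under 0.05 there were 2 of 31, Phf19 and Cbx2, against 13.1% of all tested genes. With the dispersion trend of DESeq2 1 of 31 passed, Phf19, against 8.24% of all. The SD of log2(CPM + 1) over clones had a median of 0.21 over members, 0.24 over all tested genes and 0.22 over the 10745 tested genes whose mean lay within the members' range. That last set is not matched on abundance: the members' median level was 134 CPM, against 38.8 CPM for the set. In 24 of 31 members (77.4%) the highest clone was less than 2 times the lowest, against 65.4% of those 10745 genes.

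**Figure D2:**
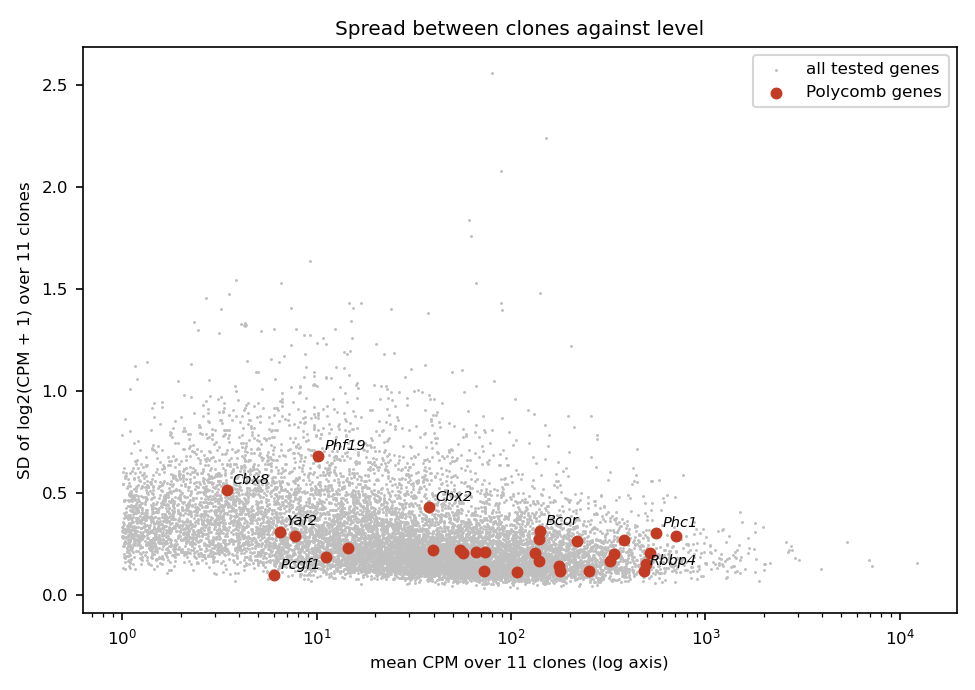
SD of log2(CPM + 1) over 11 clones (y axis) against mean CPM (x axis, logarithmic) for all 12479 tested genes in grey and the 31 Polycomb genes in red. Phf19, at an SD of 0.68, Cbx8 (0.52) and Cbx2 (0.43) stand highest of the Polycomb genes, and Pcgf1 (0.10) lowest.

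Of the 6 members with the lowest SD all but Rbbp4 were PRC1 subunits. Pcgf1 ranged from 5.43 to 7.20 CPM, with an SD of 0.10 on the log2 scale. Pcgf2 (92.5 to 119 CPM), Rbbp4 (421 to 538), Rybp (227 to 293), Rnf2 (158 to 204) and Pcgf3 (63.6 to 86.3) had SDs of 0.11 to 0.12. Ezh2 was lowest in clone 19 (155 CPM) and highest in clone 20 (203), with a median of 171. Suz12 was lowest in clone 22 (395 CPM) and highest in clone 26 (567), with a median of 499. Eed was lowest in clone 19 (265 CPM) and highest in clone 24 (384), with a median of 334. Ezh1 was lowest in clone 16 at 39.9 CPM and highest in clone 26 at 65.0.

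**Figure D3:**
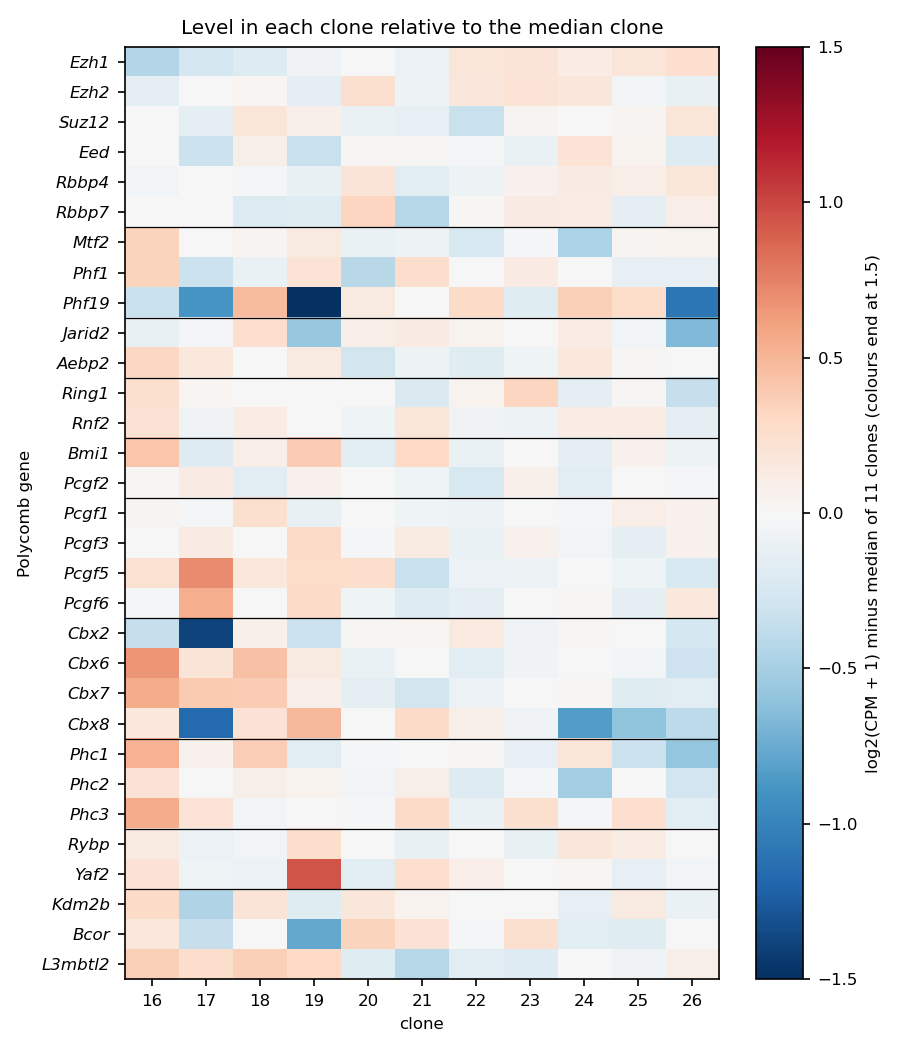
Level of each Polycomb gene (rows, grouped by role) in each clone (columns) as log2(CPM + 1) minus the median of the 11 clones, with colours that end at 1.5 in either direction. The darkest cells are Phf19 in clones 19, 26 and 17, Cbx2 and Cbx8 in clone 17, Cbx8 in clone 24, and Yaf2 and Bcor in clone 19, while the PRC2 core rows at the top are paler.

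Phf19, which encodes a Polycomb-like protein with a Tudor domain that binds methylated lysine 36 of histone H3, had the widest spread of the 31. It stood at 2.89 CPM in clone 19, 4.69 in clone 26, 5.48 in clone 17 and 8.51 in clone 16, and at 9.59 to 15.6 CPM in the other 7. Its raw counts were 50 to 228. The highest clone was 5.42 times the lowest. The goodness-of-fit test gave p = 0.00722 and an adjusted p of 0.0827 by edgeR, with 0.0172 to 0.477 over 16 alternatives. The adjusted p was 0.0172 with the DESeq2 trend, 0.0402 without clone 16 and 0.477 without clone 19, so this call rests on the settings. The median shift of the genes around Phf19 on chromosome 2 was at most 0.04 on the log2 scale in any clone. Its paralogue Mtf2 was highest in clone 16, at 659 CPM.

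Cbx2 and Cbx8 were lowest in the same clone. Cbx2 had 15.4 CPM in clone 17, against 40.3 ± 4.85 CPM in the other 10 clones (SD, n = 10), whose range was 32.6 to 46.7. Clone 17 thus lay outside the range of all others. The log2 fold change was -1.39 ± 0.22 (SE; edgeR quasi-likelihood test, adjusted p = 0.0266 over 137269 pairs of gene and clone). It was the only call among the 341 pairs of member and clone, 0.293%, where 0.213% of all pairs were called and 0.0881% of genes were called lower in clone 17. The fold change stayed between -1.37 and -1.42 over the alternatives that kept clone 17. The adjusted p rose above the threshold without clone 20 (0.0531), 21 (0.0513), 23 (0.0566) or 25 (0.0516). Cbx8, which also lies on chromosome 11, had 1.11 CPM in clone 17, against 3.67 ± 1.24 CPM in the other 10 (SD, n = 10; range 1.64 to 5.60). Its log2 fold change was -1.72 ± 0.65 (adjusted p = 0.663 by edgeR), and the clone 17 level rests on 14 reads. The 50 genes around each of them had the same median shift, 0.00, in clone 17, and these windows are not separate observations. Cbx7 in clone 17 stood at 474 CPM, its second highest level, and its share of the CBX transcripts there was 80.7%, the highest of the 11 clones. The summed stem cell markers (6902 CPM) were lowest and the neural marker Pax6 (10.2 CPM) highest in clone 17, and their part in these levels was not tested.

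Clone 19 held the lowest level of Ezh2, Eed, Phf19, Pcgf1 and Bcor and the highest of Pcgf3, Cbx8, Rybp and Yaf2, and none of these passed the edgeR test there. The share of all tested genes with an extreme in clone 19 is not given here, so this list is a description only. Yaf2, the low paralogue of Rybp, had 12.1 CPM in clone 19, against 5.88 ± 0.682 CPM in the other 10 (SD, n = 10; range 5.04 to 7.07). Its log2 fold change was 1.04 ± 0.22 (SE; adjusted p = 0.101 by the edgeR quasi-likelihood test and 0.00135 by the DESeq2 Wald test). The 50 genes around Yaf2 had a median shift of 0.49 in clone 19, and set against this shift the log2 fold change of Yaf2 was 0.61 ± 0.32 (adjusted p = 0.935 by edgeR). The X-linked gene Bcor had 83.0 CPM in clone 19, against 146 ± 21.4 CPM in the other 10 (SD, n = 10; range 112 to 179), a log2 fold change of -0.81 ± 0.23. Its adjusted p was 0.307 by edgeR and 0.0374 by DESeq2. DESeq2 called 1.05% of all pairs, so these calls come from a test that passes more pairs. At an unadjusted p under 0.05 by edgeR there were 24 of 341 pairs of member and clone (7.04%), against 5.92% of all pairs. In clone 19 the neural marker Nes (75.9 CPM) was highest and the stem cell marker Utf1 (76.6 CPM) lowest of the 11 clones, and their part in these levels was not tested.

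**Figure D4:**
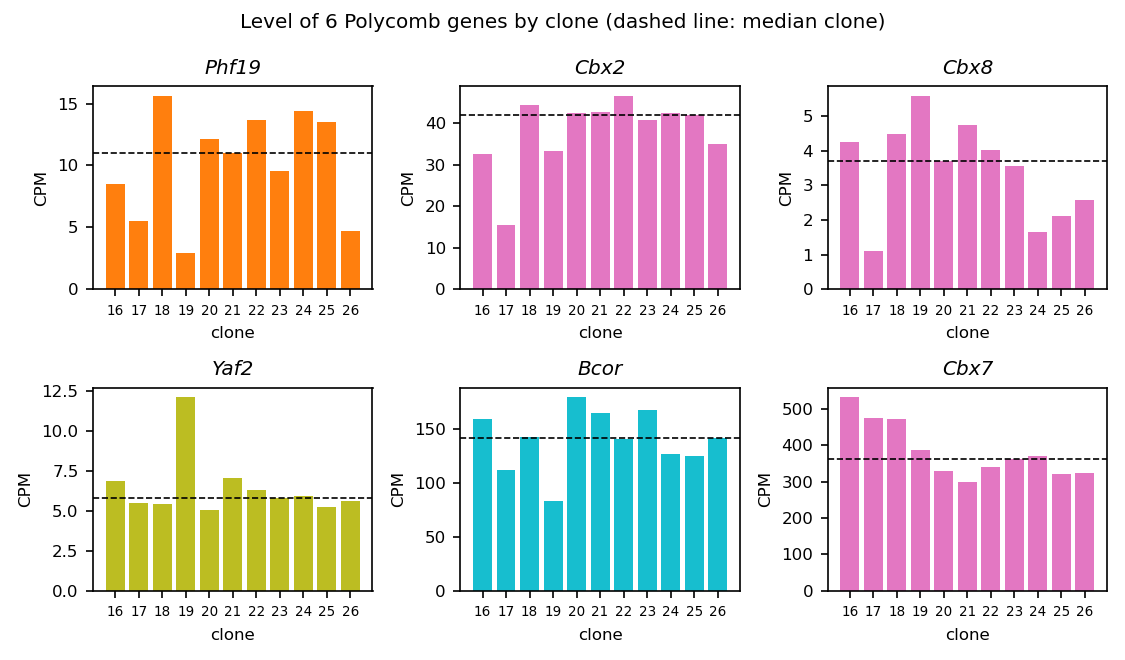
CPM of 6 Polycomb genes (y axes, starting at 0) in each of the 11 clones (x axes), with a dashed line at the median clone. Phf19 is at 2.89 CPM in clone 19, Cbx2 at 15.4 and Cbx8 at 1.11 in clone 17, Yaf2 at 12.1 and Bcor at 83.0 in clone 19, and Cbx7 at 388 to 533 in clones 16 to 19.

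Other members had low or high libraries that passed no test. Jarid2 had 462 CPM in clone 26 and 492 in clone 19, and 677 to 872 in the other 9. Phc1 extended over 368 CPM in clone 26, a median of 550.4 and 788 in clone 16, a range of 2.14-fold. Kdm2b was lowest in clone 17 at 96.7 CPM, against 137 ± 14.8 CPM in the other 10 (SD, n = 10). Phc2 was lowest in clone 24 at 40.2 CPM, against 58.2 ± 5.73 CPM in the other 10 (SD, n = 10). Clone 26 held the lowest level of Jarid2, Ring1, Rnf2, Phc1, Phc3 and Cbx6, and clone 21 that of Rbbp4, Rbbp7, Pcgf5, Pcgf6, Cbx7, Rybp and L3mbtl2. The share of all tested genes that were lowest in these clones is not given here, so these lists are a description only.

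Several high levels coincided with a shift of the whole chromosomal neighbourhood, taken as the median over the 25 nearest tested genes on each side. Of the 341 pairs of member and clone, 20 had a neighbourhood shift of at least 0.2 on the log2 scale, and in 17 of them the member moved the same way. They concern 7 genes: Cbx6, Cbx7, L3mbtl2 and Yaf2 on chromosome 15, Pcgf5 and Pcgf6 on chromosome 19 and Phc3 on chromosome 3. Most are the genes of chromosome 15 in clones 16 to 19, so the pairs are not separate cases. The matching shares over all tested genes are not given here, so these counts are a description only. In clones 16 to 19 the neighbourhoods of the 4 genes on chromosome 15 were higher by 0.36 to 0.51. Cbx7 had 388 to 533 CPM in these 4 clones, against 299 to 370 CPM in the other 7. Cbx6 had 142 to 205 CPM there, against 104 to 129.9 in the other 7, and L3mbtl2 254 to 272 CPM, against 157 to 225. For these 3 of 31 members (9.68%) the 4 clones lay above all others, against 3.29% of all tested genes. The clones were set apart by the neighbouring genes of these same members on chromosome 15, and no test was made between them. The higher share is therefore no finding about Polycomb genes as a set. Yaf2, the other gene on chromosome 15, was above its median clone by 0.22 in clone 16 and 0.95 in clone 19, on the log2 scale, and below it by less than 0.1 in clones 17 and 18. Its level was 5.40 to 12.1 CPM in clones 16 to 19, against 5.04 to 7.07 CPM in the other 7, so the groups overlapped.

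**Figure D5:**
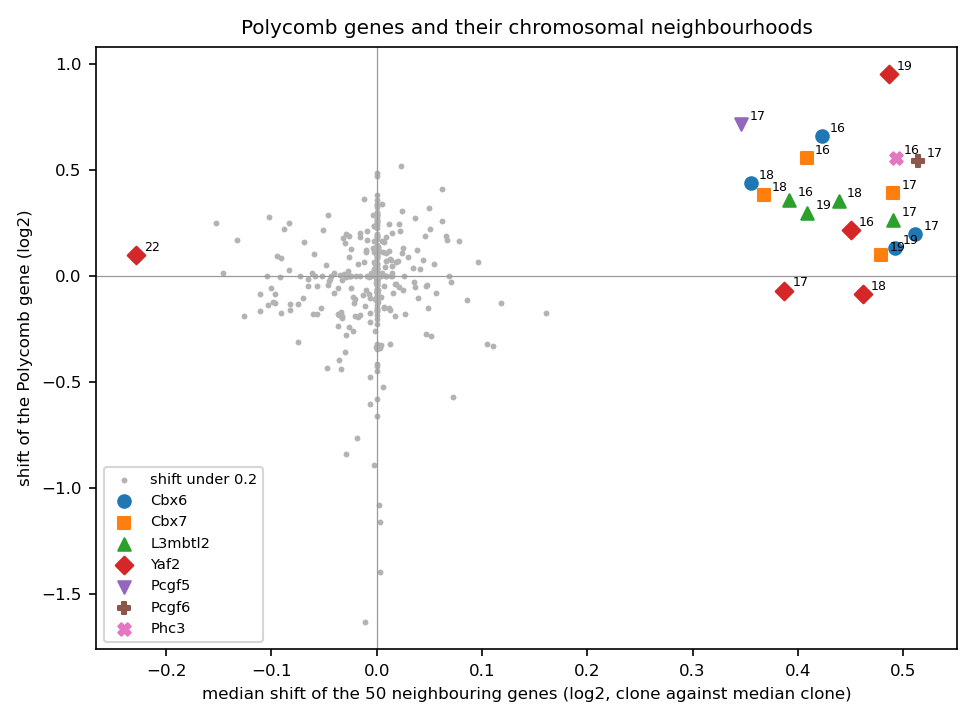
Shift of each Polycomb gene in each clone (y axis, log2 against the median clone) against the median shift of its 50 neighbouring genes (x axis, log2); coloured symbols, numbered by clone, are the 20 pairs with a neighbourhood shift of at least 0.2 and grey points the other pairs. Of the symbols 17 lie where both shifts are above 0, and the exceptions are Yaf2 in clones 17, 18 and 22. The lowest grey points, with Phf19, Cbx2 and Cbx8 among them, lie at a neighbourhood shift near 0.

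In clone 17 the neighbourhood of Pcgf6 was higher by 0.51 and that of Pcgf5 by 0.35. Pcgf6 had 103 CPM there, against 70.8 ± 7.44 CPM in the other 10 clones (SD, n = 10), and Pcgf5 12.3 CPM, against 7.28 ± 1.202. In clone 16 the neighbourhood of Phc3 was higher by 0.49, and Phc3 had 89.2 CPM, against 63.6 ± 7.32 CPM in the other 10 (SD, n = 10). Each of the 3 genes had its highest level in that clone, and none passed the edgeR test (adjusted p of 0.316, 0.562 and 0.561). With each gene set against its neighbourhood the median SD of the members was 0.19, and of all tested genes 0.22. The Cbx2 call in clone 17 remained (-1.39 ± 0.21, adjusted p = 0.0475 by edgeR). The number of gene copies was not measured.

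Whether paralogues or partners moved together was asked for 12 pairs over the 11 clones. Cbx6 and Cbx7 had a Pearson r of 0.88 (permutation p = 0.00037, adjusted p = 0.00444 over 12 pairs) and a Spearman rho of 0.70 (permutation p = 0.0211, adjusted 0.126). Without clones 16 and 18, the farthest from the median of Cbx6, r was 0.69. Set against their neighbourhoods r was 0.65 (adjusted permutation p = 0.185), and without clones 16 to 19 it was 0.11 (n = 7, exact permutation p = 0.823), so the relation rests on those 4 clones. Rbbp4 and Rbbp7, on chromosomes 4 and X, had r = 0.78 (permutation p = 0.00457, adjusted 0.0274) and rho = 0.73 (permutation p = 0.0143, adjusted 0.126). Without clones 20 and 26 r was 0.67. Set against their neighbourhoods it was 0.77 with an adjusted permutation p of 0.0608, which ends the call. Without clones 16 to 19 it was 0.78 (n = 7, exact permutation p = 0.0351, adjusted 0.421). The other 10 pairs had adjusted permutation p of 0.169 to 0.943 for r. Among them were Kdm2b with Bcor (r = 0.62, rho = 0.62), Mtf2 with Phf19 (r = -0.48, rho = -0.61), Cbx2 with Cbx7 (r = -0.51, rho = -0.46), Ezh1 with Ezh2 (r = 0.39, rho = 0.28), Ring1 with Rnf2 (r = 0.09, rho = 0.00) and Suz12 with Eed (r = -0.03, rho = -0.02). Rybp with Yaf2 had r = 0.57 and rho = 0.26, and r was 0.00 without clones 19 and 24.

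The remaining subunits had a median SD of 0.16 on the log2 scale. Of 36 tested genes among other PRC1, PRC2 and PR-DUB subunits, 1 was variable by edgeR (2.78%, against 7.68% of all tested genes) and 3 had an unadjusted p under 0.05. The variable gene was Tfdp1, a dimer partner of E2F factors, at 50.3 CPM in clone 17 and 175 in clone 22 (adjusted p = 0.00191). The highest were Mga, the scaffold of the PCGF6 complex, at 751 ± 77.5 CPM, and the deubiquitinase Usp7 at 737 ± 88.8. Eloa, which encodes elongin A, was lowest in clone 19 at 34.7 CPM with a log2 fold change of -1.04 ± 0.14 (edgeR quasi-likelihood test, adjusted p = 0.0125). Neighbourhood shifts are not given here for Tfdp1 or Eloa. A change of either gene alone can therefore not be told apart from a shift of its chromosomal region. Of 15 demethylase and trithorax genes 1 was variable by edgeR (6.67%, against 7.68% of all tested genes). It was the Y-linked demethylase paralogue Uty, at 0.504 CPM in clone 24 and a median of 75.3 CPM. Ash2l (771 ± 118 CPM) and Kmt2d (322 ± 51.2), subunits of the complexes that methylate lysine 4, were the highest of that list.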

How the data were processed

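The deposited table holds raw read counts, whole numbers as deposited by the authors, for 22369 mouse Ensembl gene IDs in 11 libraries. Per the submitters' processing notes, the tools were TopHat 1.4.0 and Bowtie 0.12.7, and mm9 and hg19 are named as builds without a role. Counting tool, strand and multi-mapping rule: not given in the sources used here. RNA came from RNeasy columns and went into TruSeq RNA libraries, per the labels' protocols. Of the IDs 20777 have a symbol, and the 1592 without one hold 0.401% of counts. GENCODE vM21 supplied lengths and gene order. Its build, GRCm38, is later than mm9, so no coordinate was set against the table.

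The tests ran in edgeR 4.0.16 (R 4.3.3) with TMM scaling, on the 12479 genes that averaged 1 CPM or more. Spread between clones was tested by goodness of fit of an intercept-only negative binomial model with trended dispersion (chi-square). Each clone was set against the other 10 with the quasi-likelihood test, adjusted over 137269 pairs. The SE is the fold change divided by the root of F. Since each clone has a single library, clone and library effects cannot be told apart. DESeq2 1.42.0, other filters, other lengths, a neighbourhood offset and leaving out each clone served as alternatives. Correlations used 100000 permutations. Near-identical copies were sought with minimap2 2.31. Python 3.11.15, pandas 2.3.3, NumPy 2.4.6 and matplotlib 3.10.9 did the rest, and the scripts were tested on simulated data. The members, lists and tests were chosen with earlier results of these data known. All members were described, and of each other list the 2 highest genes and those that passed a test.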

Additional observations from a re-analysis of the deposited data

How the results depend on the processing

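The count of variable members was 0 in 14 of 16 alternatives and 1 with the DESeq2 dispersion trend. Leaving out single clones gave 0 to 1 variable members and 0 to 1 clone calls. The DESeq2 Wald test gave 3 clone calls among the 341 pairs of member and clone, where it called 1.05% of all pairs. The median SD of members was 0.19 to 0.22 on the log2 scale over its 14 alternatives. Of 48 alternative correlations 44 kept their side of the threshold. The 4 that did not were lost calls of Rbbp4 with Rbbp7 and of Cbx6 with Cbx7. The other pairs were called in no setting, so the 44 do not measure how firm these calls are. For Rbbp4 with Rbbp7 r was 0.77 with the neighbourhood offset (adjusted p = 0.0608) and 0.78 without clones 16 to 19, an alternative chosen after seeing the data. For Cbx6 with Cbx7 the values were 0.65 and 0.11. The cause was not tested for the calls, and the second alternative has fewer clones. No paired analysis was possible because there is a single group.

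Shares depend on the length used. With the longest transcript Ezh2 held 82.9%, Rbbp7 57.8% and Rnf2 91.1% of their families. With coding length the shares were 76.4% for Ezh2, 41.1% for Rbbp7, 95.3% for Mtf2, 95.1% for Rnf2, 31.4% for Pcgf2, 80.2% for Phc1, 78.4% for Cbx7 and 96.9% for Rybp. On unscaled CPM they were 76.3%, 41.1%, 95.3%, 94.1%, 34.9%, 81.7%, 67.8% and 97.5% in the same order. With coding length the ratios were 0.357 for Ezh2 over Suz12, 0.467 for both EZH genes over Suz12, 1.11 for Eed over Suz12, 0.778 for canonical over variant PCGF and 1.72 for the CBX genes over Rybp and Yaf2. On unscaled CPM they were 0.359, 0.471 and 0.660 for the first 3, 0.625 for the RING genes over the PCGF genes, and 0.657 for the Polycomb-like genes over Jarid2 and Aebp2. Depth limits Cbx8, at 14 to 97 reads per library.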

Other observations

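Genes that Polycomb complexes are known to silence in embryonic stem cells were mostly near the floor of detection. Among 38 measured Hox cluster genes, 10 reached a mean of 1 CPM, and the summed level of the list was lowest in clone 17 (32.7 CPM) and highest in clone 19 (81.5). Hoxc13 (15.7 ± 2.63 CPM) and Hoxc12 (5.01 ± 2.15) were the highest. Hoxc10 (0.301 to 3.06 CPM) and Hoxd8 (0.252 to 3.83) passed the edgeR goodness-of-fit test (adjusted p of 0.0431 and 0.0311). They are 2 of the 10 tested (20%), against 7.68% of all tested genes. Of 39 developmental regulators 8 reached 1 CPM. Of these 8, Meis2 and Pax6 were variable by edgeR (2 of 8, 25%, against 7.68% of all tested genes). Eomes stood at 10.2 ± 4.07 CPM. Meis2, a homeodomain cofactor of Hox proteins, was lowest in clone 24 (19.5 CPM) and highest in clone 16 (154) (adjusted p = 3.49e-14 by edgeR). Pax6, an eye and neural regulator, had 10.2 CPM in clone 17 (log2 fold change 3.35 ± 0.46 against the other 10, adjusted p = 0.0155 by the edgeR quasi-likelihood test).

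Germline genes known as targets of the PCGF6 complex were higher and uneven. Of 14 tested genes 6 were variable by edgeR (42.9%, against 7.68% of all tested genes): Stag3 (24.6 to 112 CPM), Dazl (19.9 to 112), Stk31 (15.2 to 49.9), Stra8 (1.58 to 18.6), Zcwpw1 (9.79 to 40.2) and Hormad1 (8.45 to 29.6). Sycp3 had 27.8 CPM in clone 24, a log2 fold change of 1.82 ± 0.30 against the other 10 (adjusted p = 0.0349 by the edgeR quasi-likelihood test). Their highest levels fell in different clones: clone 21 for Stag3 and Dazl, 26 for Stk31, 19 for Stra8, 22 for Zcwpw1 and 17 for Hormad1. Sycp3 was lowest in clone 21 (5.24 CPM).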
